A study of Mus musculus with 6 samples.

Results

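The genes described here are 10 receptors, ligands and motor proteins of photoreceptor outer segment phagocytosis, Mertk, Axl, Tyro3, Gas6, Pros1, Itgav, Itgb5, Mfge8, Cd36 and Myo7a. They were chosen by name for this role, and each of the 10 has a line of its own among the 33924 genes of the deposited table. The poly(A)-selected libraries were made from RPE/choroid, the retinal pigment epithelium (RPE) scraped from the sclera together with the vascular choroid behind it. The samples came from 3 young and 3 aged wild-type C57BL/6J mice with no further allele or agent. Young mice were 1 to 2 months old by their labels, and the methods of the study give a somewhat older range. The age of the aged mice is labeled as 20 to 24 months in sample titles but as 22 to 24 months in the field for age. The labels name only male mice, whereas the methods of the study include both sexes. Each sample pooled a pair of eyes.

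The measurement is the mean normalized count of each gene over the 6 libraries, as the authors averaged it over both ages. No value of a single library was used, so no SD, no n per age and no test between members can be given, and the levels of young and aged mice are not separated. The columns with the authors' own comparison of the ages were not used. The means of all genes added up to 40816668. The level of a gene in this mixed tissue does not tell apart how many cells carried its transcript and how much transcript a cell held.

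The RPE lies against the tips of the photoreceptors and each day engulfs the membrane discs that they shed. Shed tips expose phosphatidylserine, which soluble bridging ligands bind. The ligand MFG-E8 links the membrane to the integrin αvβ5, which binds the particle, while GAS6 and protein S link it to the receptor tyrosine kinase MERTK, which triggers its uptake. MERTK, AXL and TYRO3 form the TAM receptor family. CD36 is a scavenger receptor for oxidized lipids that takes part in uptake, and the motor MYO7A carries phagosomes and melanosomes in the RPE. Loss of MERTK leads to degeneration of the retina.

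As the levels of related receptors were compared, it was first examined how much sequence they share, because fragments common to several genes could be counted for any of them. The coding sequences of the TAM receptors were 65.9% to 66.7% identical in pairs over their aligned bases, and the longest run of identical bases in each pair was 14 bases long. The runs are shown as the longest stretches without a mismatch in each pair, with the shared run in capitals and up to 8 coding bases on either side. Positions are counted from the first base of the start codon in the annotated transcript (GENCODE M21 on GRCm38).
Mertk, 1837 to 1850: aggtggcaGTGAAGACCATGAAgttggaca
Axl, 1678 to 1691: aggtcgctGTGAAGACCATGAAaattgcca
Mertk, 2347 to 2360: cttttggcGTGACCATGTGGGAaataacaa
Tyro3, 2128 to 2141: ccttcgggGTGACCATGTGGGAgatcatga
Axl, 1222 to 1235: cggctgggGATGGGCCCTGGAGccttcctg
Tyro3, 1174 to 1187: caattggtGATGGGCCCTGGAGtcagccac

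The bridging ligands GAS6 and protein S are also homologous, with 64.7% identical bases and a longest shared run of 12 bases.
Gas6, 487 to 498: agaatgggGGCTGCAGCCAGgtctgcca
Pros1, 508 to 519: tcaatggaGGCTGCAGCCAGatttgtga

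In 9 of the 10 transcripts, no word of 50 bases occurred in an annotated transcript of another gene. The exception was Itgb5, of whose words 91.2% were its own, and the rest matched the annotated gene Gm38317. How far fragments of Itgb5 were split with Gm38317 was not tested. Among the genes that overlap a member, Tmem255b on the opposite strand shares 34 exonic bases with Gas6 and had a mean normalized count of 182. The other overlapping genes shared no exonic bases with a member.

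The soluble ligands Gas6 and Mfge8 were the most abundant members per kilobase of the transcript with the longest coding sequence. Pros1 ranked 5 of the 10, below both integrin chains. Gas6 had a mean normalized count of 21689.9, Mfge8 of 13473 and Pros1 of 6159.7. To compare genes of different length, each mean was divided by the length of the transcript with the longest coding sequence. Whether the deposited means already carry a division by length is not settled by the sources, and undivided the mean of Gas6 was 5.79 times that of Mertk, against 9.78 times per kilobase. Per kilobase the level of Gas6 was 8513, that of Mfge8 6340.1 and that of Pros1 1865. Gas6 was thus 4.56 times as abundant as Pros1, the other ligand that engages TAM receptors, with ratios of 3.53 to 5.65 over 4 ways to measure transcript length. Gas6 exceeded Mfge8 by a factor of 1.34, and this ratio lay between 1.11 and 2.97 over the same choices. Among 15534 protein-coding genes with a mean of at least 10, the level per kilobase of Gas6 stood at percentile 98.1 and that of Mfge8 at percentile 97.2. Pros1 stood at percentile 88.9. On GRCm38, Gas6 (ENSMUSG00000031451) occupies chr8:13465374-13494490 (minus strand), Mfge8 (ENSMUSG00000030605) chr7:79133768-79149060 (minus) and Pros1 (ENSMUSG00000022912) chr16:62854307-62929346 (plus).

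The TAM receptors were less abundant than each of these ligands. Per kilobase Axl had a level of 969.5, Mertk of 870.4 and Tyro3 of 601. Their mean normalized counts were 4135, 3745 and 2399. Mertk thus made up 35.7% of the summed TAM receptor level per kilobase, Axl 39.7% and Tyro3 24.6%. Axl and Mertk exchanged places with the choice of length, as their ratio lay between 0.951 and 1.24, and are not ordered here. Tyro3 was below both under each of the 4 length choices, with Mertk 1.38 to 2.23 times as high. Axl stood at percentile 79.6 of protein-coding genes, Mertk at percentile 77.5 and Tyro3 at percentile 69.5. The 3 ligands together had 6.85 times the summed level per kilobase of the 3 receptors. Mfge8, whose product links to αvβ5 rather than to the TAM receptors, made up 37.9% of that ligand sum. Gas6 alone had 9.78 times the level of Mertk, with ratios of 8.54 to 9.86 over the length choices. The excess of the ligands was smaller with no division by length. Undivided, Gas6, Mfge8 and Pros1 had 5.79, 3.60 and 1.64 times the mean of Mertk, against 9.78, 7.28 and 2.14 times per kilobase. Mertk (ENSMUSG00000014361) occupies chr2:128698956-128802894 (plus), Tyro3 (ENSMUSG00000027298) chr2:119797733-119818104 (plus) and Axl (ENSMUSG00000002602) chr7:25757273-25788705 (minus).

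**Figure D1:**
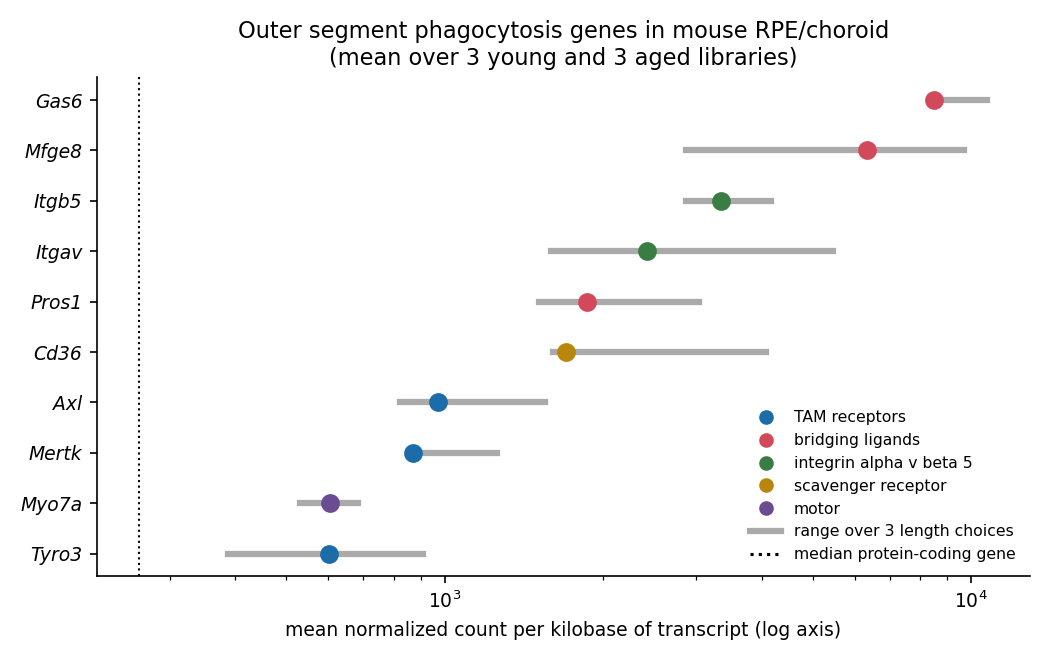
Level of each of the 10 genes as the mean normalized count per kilobase of transcript over 6 libraries, on a log axis, with the color giving the role, the grey bar the range over 3 measures of length (main transcript, all exons, coding part, without the median transcript that puts Itgav at 24870.1) and the dotted line the median protein-coding gene. Gas6 (8513) and Mfge8 (6340.1) lie highest, the TAM receptors and Myo7a lie lowest, and all 10 lie above the median of 263.

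MERTK also has ligands outside the bridging pair, namely the tubby family proteins TUB and TULP1 and galectin-3, encoded by Lgals3. Lgals3 had a level of 5419 per kilobase, Tulp1 of 2560.3 and Tub of 311. Gas6 was 3.32 times as high as Tulp1, with ratios from 2.33 to 10.6 over the length choices. The order of Gas6 and Lgals3 changed with the length, as the ratio of Lgals3 to Gas6 lay between 0.486 and 1.05. Galectin-3 is also made by macrophages, and TULP1 by photoreceptors. Markers of both cell types were present in the tissue, as given further on, and their part in these levels was not tested.

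The integrin subunits lay above Pros1 and the TAM receptors. They lay below Gas6 and Mfge8 per kilobase of the transcript with the longest coding sequence, but not under every length. Itgb5, which encodes the β5 chain, reached 3339 per kilobase from a mean normalized count of 10204. Itgav, which encodes the αv chain, had a mean of 17111 and a level of 2426 per kilobase. The order of the chains of αvβ5 turned with the length that was used, because the Itgav transcript of 7054 bases has a coding part of only 3132 bases. Per kilobase of coding sequence Itgav reached 5463 and Itgb5 4168. Per kilobase of all annotated exons the levels were 1593 and 2872, and Mfge8 then had 2870. With the median coding transcript Itgav reached 24870.1, above Gas6 with 8513. With no division by length the mean of Itgav, 17111, was above that of Mfge8, 13473. Itgb5 (ENSMUSG00000022817) occupies chr16:33829665-33949338 (plus) and Itgav (ENSMUSG00000027087) chr2:83724397-83806916 (plus).

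The αv chain pairs with further β chains. Itgb1, whose product pairs with many α chains, had a level of 4982 per kilobase, and Itgb8 had a level of 4586. Itgb1 was 1.49 to 2.52 times and Itgb8 1.21 to 4.02 times as high as Itgb5 under the 4 length choices. Itgb3 and Itgb6 had levels of 77.7 and 87.6. Itgb5 was therefore 43.0 times as high as Itgb3, the β chain of the vitronectin receptor of endothelium and osteoclasts, with a lowest ratio of 21.9. Itgb3 and Itgb6 stood at percentiles 26.0 and 27.9 of protein-coding genes, against percentile 94.0 for Itgb5. As the β chains are paralogs, the coding sequences of Itgb5 and Itgb3 were compared and were 66.7% identical. Their longest shared run, which is the longest in any pair examined here, had 16 bases.
Itgb5, 443 to 458: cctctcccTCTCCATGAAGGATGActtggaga
Itgb3, 440 to 455: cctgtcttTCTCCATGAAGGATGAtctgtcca

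Cd36 encodes a class B scavenger receptor of RPE, macrophages, capillary endothelium, adipocytes and muscle. Its level was 1696 per kilobase, at percentile 87.9, from a mean normalized count of 5766. The level of Cd36 was 1.46 times that of Scarb1, the receptor for high density lipoprotein, and 1.97 times that of Scarb2, a lysosomal membrane protein. These ratios lay between 1.17 and 4.67 and between 1.44 and 2.50 over the length choices, so that Cd36 was the highest of the 3 under each of them. Per kilobase of transcript Cd36 was 33.4 times as high as the adipocyte marker Adipoq, and the 4 adipocyte markers had levels between 7.53 and 50.7. Macrophage markers had levels of 29.99 to 12659, endothelial markers of 179 to 1909 and skeletal muscle markers of 8136 to 39379. The part of each of these cell types in the level of Cd36 was not tested. Cd36 (ENSMUSG00000002944) occupies chr5:17781690-17888801 (minus). It has 6 annotated coding transcripts, and the level per kilobase of its coding part was 4072.

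Myo7a encodes an unconventional myosin that is mutated in Usher syndrome. Its mean normalized count was 4543, above those of all 3 TAM receptors. As its transcript has 7506 bases, its level per kilobase was only 605, which is 0.695 times that of Mertk and 1.01 times that of Tyro3. Myo7a ranked 4 of 24 unconventional myosins per kilobase, after Myo5a with 1626, Myo6 with 1374 and Myo1c with 707. Myo6 was below Myo7a under 1 length choice, with a ratio of 0.888. With no division by length Myo1c, with a mean of 3291, was below Myo7a as well. Its paralog Myo7b had a level of 0.780, and Myo3a was listed at 0. In the RPE MYO7A is linked to melanosomes through MYRIP and RAB27A. Rab27a had a level of 3694 per kilobase, which is 6.10 times that of Myo7a, and Myrip had a level of 1567, which is 2.59 times that of Myo7a. Both partners were above Myo7a under each of the 4 length choices, with lowest ratios of 5.69 and 2.59. With no division by length the ratios of Rab27a and Myrip to Myo7a were 2.58 and 1.69. Which cells of this mixed tissue carried the transcripts of Myo7a, Myo5a, Rab27a and Myrip was not tested. Myo7a (ENSMUSG00000030761) occupies chr7:98051060-98119524 (minus).

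**Figure D2:**
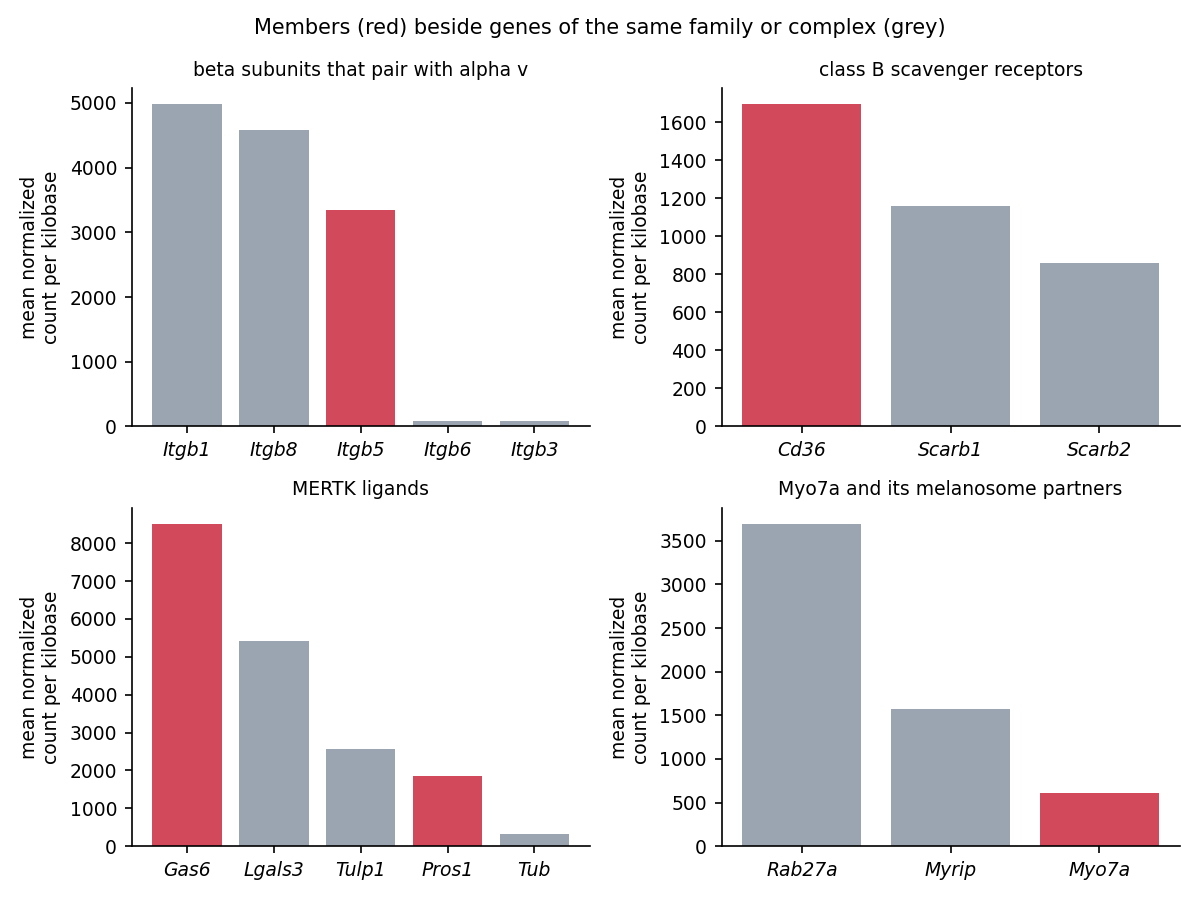
Level per kilobase of transcript (mean normalized count over 6 libraries, linear axes from 0) for the genes described here (red) and for genes of the same family or complex (grey), in 4 panels with their own scales. Itgb5 lies far above Itgb3 and Itgb6, Gas6 is the highest MERTK ligand by this length (Lgals3 is 1.05 times as high by another), Cd36 the highest class B scavenger receptor and Myo7a the lowest gene of its melanosome complex.

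The mean normalized counts of the 10 genes added up to 89224.5. All 10 were above the median of protein-coding genes, and 4 of them, Gas6, Mfge8, Itgb5 and Itgav, were at or above percentile 90. From the highest member, Gas6, to the lowest, Tyro3, the levels per kilobase of the main transcript spanned a factor of 14.2. Neither end held under every length, as Itgav reached 24870.1 against 8513 for Gas6 with the median coding transcript, and Myo7a and Tyro3 exchanged places. Some neighbours in the order cannot be ranked by these data. The pairs Mfge8 and Itgb5, Itgb5 and Itgav, Pros1 and Cd36, Axl and Mertk, and Myo7a and Tyro3 turned their order under at least 1 of the length choices. Gas6 above Mfge8, Itgav above Pros1, Cd36 above Axl and Mertk above Myo7a held under all 4. With no division by length the last of these turned, as Myo7a was then 1.21 times as high as Mertk.

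Genes that act after binding were given by lists. Of 12 genes of engulfment signaling, all 12 had a mean of at least 10, with a median level of 794 per kilobase. The highest was Cdc42, a small GTPase that acts on actin, with a level of 9848, and the lowest was Elmo1, an engulfment adaptor, with a level of 61.6. Its paralog Elmo2 had a level of 929. Ptk2, the kinase that αvβ5 activates, had a level of 535, below that of Mertk, and Rac1, the GTPase of the phagocytic cup, had a level of 2259. Of the 14 genes of phagosome transport and digestion, Myo7a among them, 10 were above Mertk, and their median level was 2228 per kilobase. The highest was Ctsd, a lysosomal protease that degrades ingested outer segments, with a level of 99016, and the lowest was Rubcn, a regulator of LC3-associated phagocytosis, with a level of 468. The deposited table lists Rubcn under an older symbol.

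Most other receptors that bind phosphatidylserine or apoptotic cells had lower levels. The 10 genes of their list had a median level of 63.7 per kilobase, at percentile 23.2, and 1 of them, the macrophage glycoprotein gene Cd68, was above Mertk. Cd68 had a level of 3042. The lowest was Havcr1, with a level of 1.62 and a mean normalized count of 3.07, under the minimum of 10. The phosphatidylserine receptor genes Timd4 and Stab2 had levels of 10.2 and 10.8. Mertk with 870.4 was thus above 9 of the 10 receptors listed, per kilobase of transcript. Which receptor passed Mertk depended on the division by length. Undivided, Lrp1 with a mean normalized count of 9509 was above Mertk with 3745, and Cd68 with 3067 was below it.

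The labeled tissue was checked against markers. Of 8 RPE markers, 7 were above Mertk, with Ttr highest at 335233 per kilobase, whereas Best1 was low with a level of 39.3. Rpe65, the retinoid isomerase of the RPE, was 70.3 times as high as Mertk and 7.18 times as high as Gas6. These ratios lay between 56.7 and 75.6 and between 6.64 and 7.73 over the length choices. With no division by length they were 30.4 and 5.25. All 5 melanin genes were above Mertk, with levels from 4287 for Tyr to 116705 for Dct. How much of this signal came from the RPE and how much from the choroid was not tested. Other tissues were present as well. All 6 rod photoreceptor markers were above Mertk, with Pde6b lowest at 6053, and all 4 skeletal muscle markers lay between 8136 for Myh4 and 39379 for Tnnt3. Macrophage markers ranged from 29.99 for Lyve1 to 12659 for C1qa, and endothelial markers from 179 for Cdh5 to 1909 for Plvap. Pericyte and smooth muscle markers ranged from 192 for Cspg4 to 11043 for Rgs5, and fibroblast markers from 798 for Pdgfra to 48152 for Dcn. The 4 Schwann cell markers had a median level of 726. Several of the 10 genes are known in these cells too, such as Axl and Gas6 in vessels, Mertk in macrophages and Mfge8 in vessels and macrophages. The part of each cell type in a member's level was not tested.

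**Figure D3:**
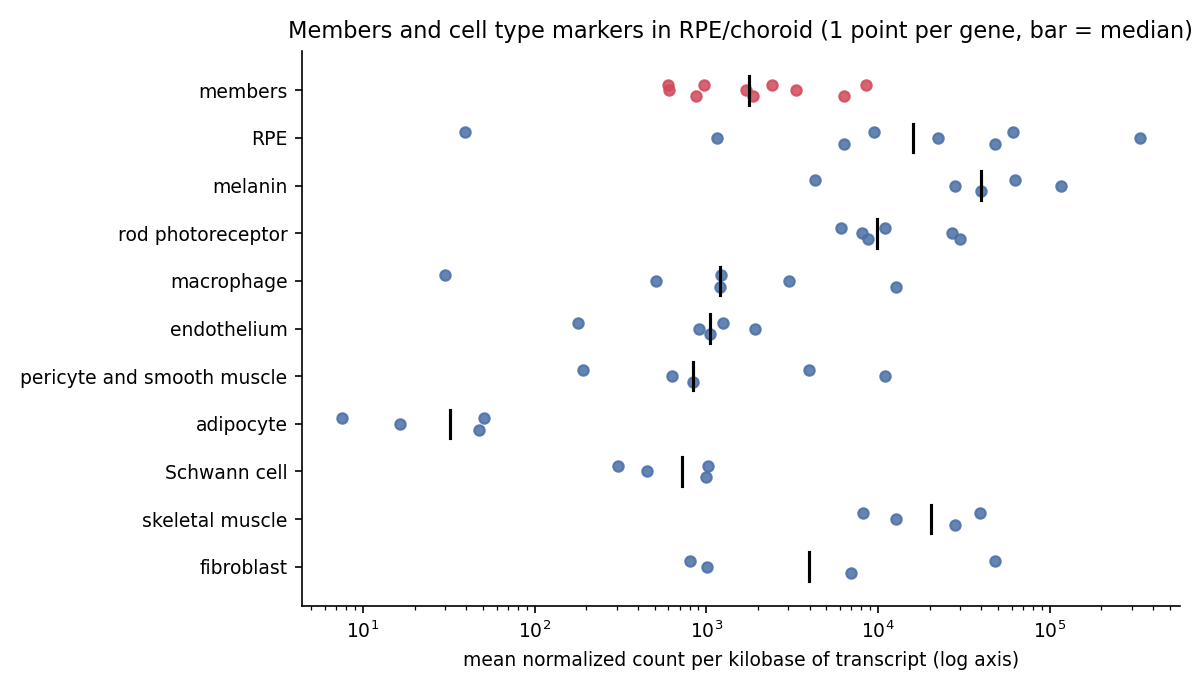
Level per kilobase of transcript (mean normalized count over 6 libraries, log axis) of the 10 genes (red) and of marker genes of 10 cell types or tissues (blue), with 1 point per gene and a bar at the median. The medians of RPE, melanin, rod and skeletal muscle markers lie above all 10 genes, and adipocyte markers lie below all of them.

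The promoters of the 10 genes were examined for features that their choice did not use. The RefSeq table (GRCm38.p6) held 11 promoters for them, with Myo7a represented by 2, each of 250 bases before and 50 bases after a transcription start. Over all 32851 promoters the median was 7 CpG dinucleotides and a GC content of 52.7%. Tyro3 had the most CpG, 31, and Cd36 the fewest, 3, with a GC content of 73.3% and 43.0%. Itgav, Pros1, Itgb5, Gas6, Mfge8 and Mertk had between 14 and 24 CpG, and Axl and both Myo7a promoters had 6. Cd36 was the one gene of the 10 with a promoter window below the median in GC content. This window covers a single start of Cd36, whose annotated gene reaches further upstream, to position 17888801. The annotated gene of Tyro3 likewise begins upstream of its window, at position 119797733. Other starts of Cd36 and Tyro3 were not examined. The 250 bases before the listed starts of Tyro3 and Cd36 are shown, as the extremes picked after the counts were known, with each CG in capitals. This window holds 24 of the CG of Tyro3 and all 3 of Cd36. Tyro3 lies on the plus strand (chr2:119799264-119799513) and Cd36 on the minus strand (chr5:17835897-17836146).
Tyro3: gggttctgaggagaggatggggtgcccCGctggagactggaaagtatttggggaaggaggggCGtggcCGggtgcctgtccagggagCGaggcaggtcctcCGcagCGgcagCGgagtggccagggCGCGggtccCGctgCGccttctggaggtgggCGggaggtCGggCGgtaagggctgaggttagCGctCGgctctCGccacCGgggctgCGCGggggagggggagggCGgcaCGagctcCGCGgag
Cd36: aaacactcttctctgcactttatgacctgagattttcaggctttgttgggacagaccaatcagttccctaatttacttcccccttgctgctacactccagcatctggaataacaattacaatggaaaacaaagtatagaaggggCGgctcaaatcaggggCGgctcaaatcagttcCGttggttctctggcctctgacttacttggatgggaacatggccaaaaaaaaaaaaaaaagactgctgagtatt

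**Figure D4:**
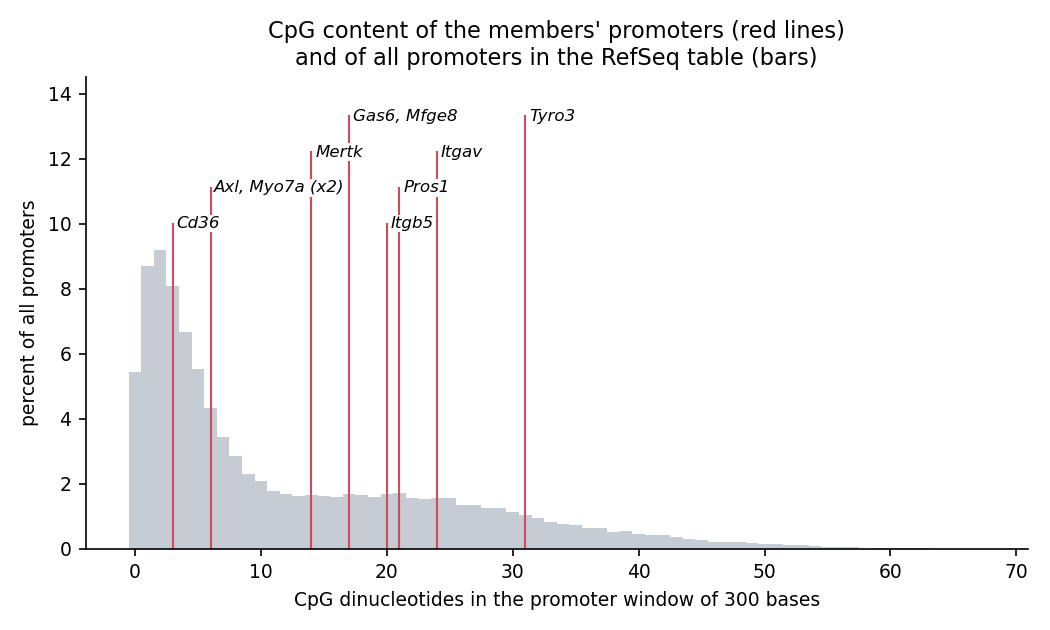
Number of CpG dinucleotides in promoter windows of 300 bases (x axis) against the percent of all 32851 promoters in the RefSeq table with that number (bars), with red lines at the promoters of the 10 genes, where Myo7a has 2. Cd36 with 3 lies among the many promoters with few CpG and Tyro3 with 31 in the long tail.

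The promoters were also searched on both strands for the motif TCATGTG, bound by MITF and its relatives, for its core CATGTG and for CACGTG, and for TAATCC, bound by OTX2. MITF and OTX2 are transcription factors of RPE identity, and their genes, Mitf and Otx2, had levels of 1157 and 6370.3 per kilobase. The motif TCATGTG was found in 1 of the 11 promoters, the downstream promoter of Myo7a, against 3.77% of all promoters. Its core CATGTG occurred there 2 times, once inside the longer motif, and is held by 14.2% of all promoters. The motif CACGTG, held by 7.15% of all promoters, the motif TAATCC, held by 7.06%, and the core promoter element TATAAA, held by 13.6%, were in none of the 11, which says only that these letters are not in these windows. The stretch of the Myo7a promoter is shown on the strand of the gene (minus, chr7:98109340-98109369), with the reverse complement of TCATGTG in capitals, which begins 110 bases before the start.
Myo7a: ctcacaccacaCACATGAtcacatccaccc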

How the data were processed

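RPE/choroid RNA of 3 young and 3 aged mice was sequenced as poly(A)-selected libraries. The authors trimmed paired reads with BBDuk, mapped them with STAR to GRCm38 transcripts, estimated TPM values with Sailfish, converted these to normalized counts using library totals and ran DESeq2. The deposited mean normalized count is a signal that the authors averaged over all 6 libraries, 1 value per gene. The sequencing depth of single libraries is not given in the sources used here. A further 5 columns hold the authors' own comparison of the ages (fold change, standard error, test statistic, p-value and adjusted p-value) and were not used, so the planned comparison of aged with young mice was not run.

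Computations used Python 3.11.15 with Biopython 1.88, and figures used matplotlib 3.10.9. Symbols were matched to GENCODE M21 (GRCm38), also through synonyms, for 97.3% of 18479 genes with a mean of at least 10. Whether the deposited means rise with length was examined in mitochondrial genes that share an mRNA. The mean of mt-Nd4l was 0.0495 times that of mt-Nd4 at 0.216 times its length, and that of mt-Atp8 was 0.123 times that of mt-Atp6 at 0.300 times its length, so the means were taken as not yet divided by length, although TPM is named as a step. Over 15534 genes the slope of the log2 mean on the log2 length was only 0.19, where a slope of 1 would be a mean proportional to length, so this choice remains uncertain. Levels per kilobase used the coding transcript with the longest coding sequence. The other length choices were all exons, the median coding transcript and the coding part. A percentile is the percent of protein-coding genes with a lower value. Coding sequences were aligned globally. The functions for the percentile and for the longest shared run were tested on simulated data, and the other steps were not. All 10 genes are named, every gene of the 4 short partner lists, and the highest and lowest gene of longer lists, except for marker genes that are not reported here. Elmo2, Ptk2, Rac1, Timd4, Stab2, Lrp1, Mitf, Otx2, Rpe65 and the named myosins other than Myo7a, Myo5a and Myo3a are exceptions. These were named after their values were seen. The members and lists were chosen with earlier results of these data known.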

Additional observations from a re-analysis of the deposited data

How the results depend on the processing

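With 1 averaged value per gene, the spread between mice is unknown and the differences between genes could not be tested. Ratios are called the same within a factor of 1.5, a tolerance set for lack of replicate error. Of the 9 other members, 7 were above Mertk per kilobase, 6 with all exons, 7 with the median transcript or coding length and 8 with no division by length. Axl turned below Mertk with all exons (0.951 times), and Myo7a turned above it with no division by length (1.21 times), which follows from its long transcript. Of 36 single ratios to Mertk under other lengths, 25 stayed within the factor and 9 moved by more without turning. The largest move was Itgav at 28.6 times Mertk with the median transcript, since its 5 coding models include short ones with a median of 688 bases. The median percentile of the members was 88.4 and ranged from 84.4 to 92.5 over 7 alternatives of length, filter and biotype. Their share of all counts stayed within the factor without mitochondrial and hemoglobin genes. Of 10 marker lists, 7 had a median above Mertk, and 6 to 9 under the other lengths. No paired analysis was possible because each gene had 1 mean over all libraries, and for the same reason the planned fits, tools and omission of replicates were not run.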
